A study of Mus musculus with 4 samples.

Results

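The 10 genes examined were Pax6, Emx1, Emx2, Eomes, Tbr1, Neurod1, Neurod2, Neurod6, Neurog1 and Neurog2, transcription factor genes known for their work in the dorsal telencephalon and in cortical neurons, out of 21938 protein-coding genes on the assembled nuclear chromosomes (GENCODE release M21, mouse build GRCm38, the same as mm10). They were chosen by name, and every peak in the body of a gene or within 10 kb on either side was taken, with no minimum. Foxr2 binding had been mapped by CUT&RUN, in which an antibody guides a nuclease to the protein and the DNA cut free is sequenced. The antibody recognised a V5 tag, and a peak is a stretch where cut fragments pile up above the background.

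The Foxr2 p53LOF group held 2 replicates of a neurosphere line from a mouse brain tumor model, with C57BL/6J as the labelled strain. The tumors had been made by in utero electroporation of the ganglionic eminences with a piggyBac vector carrying V5-tagged FOXR2 and GFP under the ubiquitous CAG promoter, together with a CRISPR guide against p53. The V5 control group held 2 replicates of a line from a separate electroporation model of the same strain, labelled H3.3G34R, which carries no V5 tag. The groups therefore differed in genotype as well as in the tag, and the methods describe the Foxr2 p53LOF samples as a single line, not as several animals. Each sample held 500000 cells. Nothing said that the 2 replicates of a group were separate cultures, so the spread between them may be technical. With 2 libraries against 2, an exact two-sided permutation test cannot go below p = 0.333, and all values are given as descriptions without a test. Expression was not measured in the peak lists, so they cannot show which of the 10 genes these cells used.

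Pax6, Emx1 and Emx2 are homeobox genes that set up the dorsal fate of telencephalic progenitors. Neurog1 and Neurog2 encode proneural basic helix-loop-helix (bHLH) factors that commit dorsal progenitors to the glutamatergic neuron fate. These factors bind DNA at short sites called E-boxes, as dimers with E proteins. Along the same path Eomes (Tbr2) marks intermediate progenitors, Tbr1 marks early postmitotic neurons of deep layers, and Neurod1, Neurod2 and Neurod6 act in differentiating excitatory neurons. The ganglionic eminences, ventral to the cortex, are instead the source of inhibitory interneurons, and their progenitors are patterned by another set of homeobox genes.

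Among the 10 genes, most peaks lay at Emx2, Neurog1 and Neurog2. Pax6 had 1 peak in each replicate, the same as the later genes Neurod1 and Neurod2, and the patterning gene Emx1 had none. The number of peaks therefore did not separate the genes by when they act. In a separate list of cortical excitatory neuron genes, 10 of 12 had overlapping peaks. The regions of that list were longer and left more room for peaks, so it cannot show a difference by stage. Overlapping peaks of both Foxr2 p53LOF replicates were found at 4 of the 10 genes, Pax6, Emx2, Neurog1 and Neurog2, whereas 62.6% of all protein-coding genes had them. The count depended on the region: with 50 kb on either side it was 7 of 10, close to the 74.7% of all genes, and a peak in a single replicate was present at 6 of 10, beside 66.2% and 66.9% of all genes. Neurod1 and Neurod2 had a peak in each replicate at places that did not overlap, a pattern seen at 1.13% of all genes. Emx1, Eomes, Tbr1 and Neurod6 had no peak in either replicate, as did 30.7% of all genes. In the V5 control lists there was no peak at any of the 10 genes, and 0.556% of all genes had a control peak in at least 1 library.

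**Figure D1:**
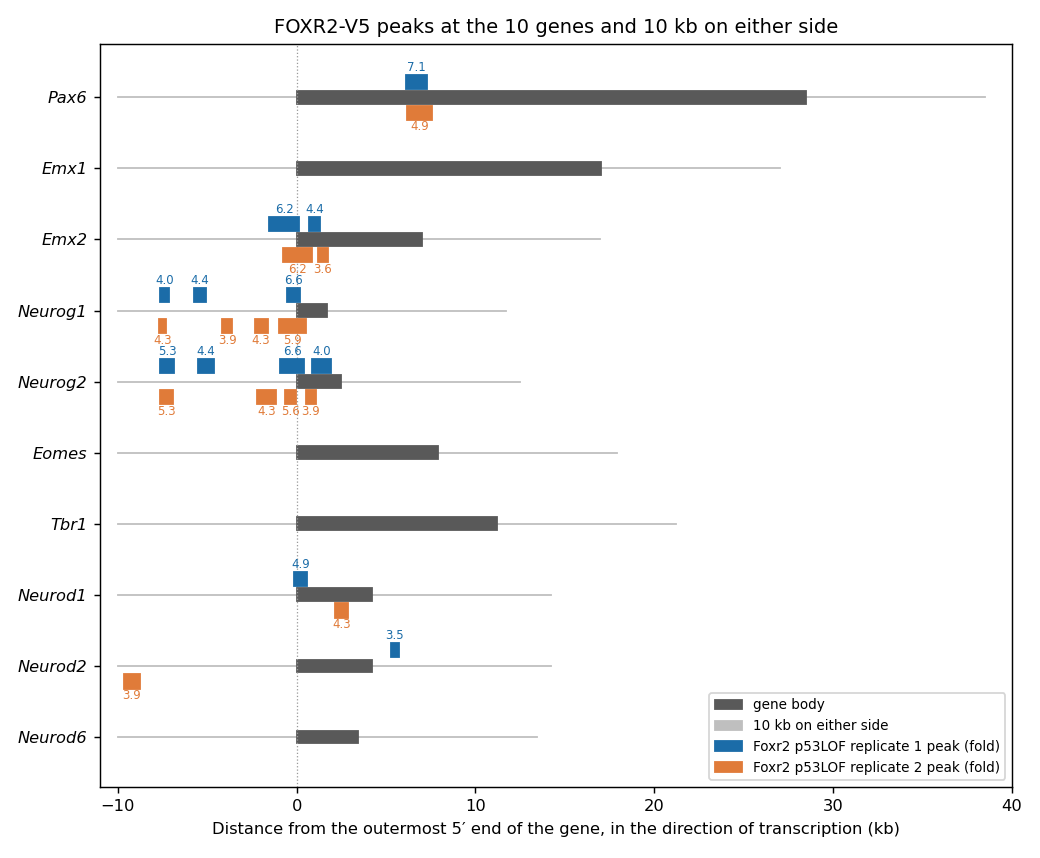
Peaks of the 2 Foxr2 p53LOF replicates along the 10 genes, with distance from the outermost 5′ end in kb on the x axis and the gene body in dark grey. Blue bars above and orange bars below a gene are peaks of replicates 1 and 2, drawn to scale with their fold over background, and Emx1, Eomes, Tbr1 and Neurod6 carry none; the V5 control had no peak to draw.

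The sequences printed below from the reference genome are those of the promoter and distal peaks of the proneural genes, of the Emx2 site that passed the filter of the study, and of 2 regions for contrast, 5′ to 3′ on the strand of the gene. Capitals mark matches, on either strand, to any of 7 short letter strings that were searched. For ETS factors the string was CCGGAAG. The general E-box was searched as CANNTG, where N is any base, and the E-box form favoured by NEUROD and NEUROG factors, which is also counted under the general one, as CAGATG. For SOX factors there were 2 strings, of which the first was CCATTGT and the other was CCTTTGT. The forkhead string was GTAAACA. The string for the zinc finger factor YY1 was AAGATGGC.

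The first is the 250 bases before the RefSeq start of Neurog1 (GRCm38.p6, chr13:56252181-56252430, minus strand), which hold the summits of both replicates at 56252269 and 56252289. Its capitals are a CCATTGT string.
Neurog1 promoter: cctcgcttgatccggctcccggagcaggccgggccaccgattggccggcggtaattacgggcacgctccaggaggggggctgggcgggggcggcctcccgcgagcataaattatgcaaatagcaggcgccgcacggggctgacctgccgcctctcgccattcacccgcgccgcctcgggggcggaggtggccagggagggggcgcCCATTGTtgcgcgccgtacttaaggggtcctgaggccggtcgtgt

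The second is the 200 bases around the promoter summit of Neurog2 in replicate 2 (GRCm38, chr3:127632554-127632753, plus strand), with the E-box CAGCTG in capitals.
Neurog2 promoter summit: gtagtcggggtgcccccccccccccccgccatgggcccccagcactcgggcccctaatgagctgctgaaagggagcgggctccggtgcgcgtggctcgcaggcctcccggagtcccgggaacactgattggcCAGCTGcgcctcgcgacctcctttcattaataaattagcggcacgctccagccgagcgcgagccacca

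The third is the 200 bases around the replicate 1 summit upstream of Neurog2 (chr3:127625554-127625753, plus strand), the distal site whose summits lay closest together, and it holds none of the strings.
Neurog2 distal summit: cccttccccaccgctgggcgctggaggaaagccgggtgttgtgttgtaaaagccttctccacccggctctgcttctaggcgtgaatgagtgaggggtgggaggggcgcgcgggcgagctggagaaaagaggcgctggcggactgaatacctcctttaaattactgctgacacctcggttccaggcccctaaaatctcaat

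The fourth is the 200 bases around the replicate 1 summit upstream of Emx2 (chr19:59457773-59457972, plus strand), at the site left by the filter of the study, with an E-box CAGCTG in capitals.
Emx2 upstream summit: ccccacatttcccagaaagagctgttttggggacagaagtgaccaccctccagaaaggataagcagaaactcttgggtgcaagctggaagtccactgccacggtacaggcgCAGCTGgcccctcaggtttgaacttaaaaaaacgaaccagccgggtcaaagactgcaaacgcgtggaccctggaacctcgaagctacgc

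The fifth is the 200 bases around the replicate 2 summit in the coding exon of Neurod1 (chr2:79454009-79454208, minus strand), shown as the window among the 25 at these genes that holds the ETS string, read here on the opposite strand.
Neurod1 coding summit: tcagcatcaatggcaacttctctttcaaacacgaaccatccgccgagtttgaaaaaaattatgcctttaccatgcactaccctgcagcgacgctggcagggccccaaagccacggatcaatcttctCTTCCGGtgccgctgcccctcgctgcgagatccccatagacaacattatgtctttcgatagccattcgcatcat

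The last is the 250 bases before the RefSeq start of Neurod6 (GRCm38.p6, chr6:55681264-55681513, minus strand), a promoter without a peak, with 2 E-boxes in capitals.
Neurod6 promoter: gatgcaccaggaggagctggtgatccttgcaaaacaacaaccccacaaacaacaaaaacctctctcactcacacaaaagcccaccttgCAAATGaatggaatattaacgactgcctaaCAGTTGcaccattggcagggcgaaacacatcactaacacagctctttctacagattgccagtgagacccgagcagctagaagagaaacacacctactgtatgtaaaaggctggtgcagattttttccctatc

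The lists differed in size and depth, which sets what could be seen at a gene. Replicates 1 and 2 of Foxr2 p53LOF held 31909 and 38580 peaks, and those of the V5 control held 308 and 124. The fold of a peak is the fragments at its summit plus 1, divided by the background plus 1, and a single background per library returned whole numbers of fragments. The background came to 1.26 and 2.04 fragments for Foxr2 p53LOF and to 1.69 and 0.642 for the V5 control. At the weakest called summit there were 6 and 8 fragments for Foxr2 p53LOF and 10 and 7 for the V5 control, and a gene without a peak is a gene where no summit was called at that depth. Intervals below are exact 95% Poisson intervals of the fragments and cover counting error only.

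Across the 10 genes there were 12 peaks in replicate 1 and 13 in replicate 2. A peak was called a promoter peak where it touched the 1 kb on either side of a protein-coding start of that gene, and a distal peak otherwise. There were 7 promoter and 5 distal peaks in replicate 1, and 6 promoter and 7 distal peaks in replicate 2. Overlapping promoter peaks were found at 4 of the 10 genes, the same 4 as above, against 50.9% of all genes. Overlapping distal peaks were found at 2 of the 10, Neurog1 and Neurog2, against 41.2%. None of the 25 summits lay 1 kb or less from where another protein-coding gene starts.

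Pax6, the paired-box master gene of dorsal telencephalic and eye progenitors, had 1 peak in each replicate, inside the gene. In replicate 1 it ran from 105675029 to 105676190 on chromosome 2 with a fold of 7.07 (15 fragments, interval 8.40 to 24.7). In replicate 2 it ran from 105675088 to 105676471 with a fold of 4.93 (14 fragments, interval 7.65 to 23.5). The summits were 84 bp apart, 6722 and 6806 bp into the gene, in an untranslated exon. They lay 95 and 179 bp past an internal protein-coding start at 105675527, 1 of 10 annotated coding starts of Pax6. The outermost start of the gene, at 105668900, carried no peak.

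Emx2, the homeobox gene of medial and caudal cortex, had 2 peaks in each replicate. In replicate 1 the higher one ran from 59456839 to 59458503 on chromosome 19, had a fold of 6.19 (13 fragments, interval 6.92 to 22.2) and its summit 499 bp upstream of the start. In replicate 2 the higher one ran from 59457584 to 59459234, had a fold of 6.24 (18 fragments, interval 10.7 to 28.4) and its summit 447 bp downstream of the start, in an untranslated exon. These summits were 946 bp apart, whereas the median gap over all overlapping promoter peaks was 124 bp. The replicate 2 peak also covered the start of Emx2os, the antisense transcript of the locus, and with no strand in the data the peak cannot be assigned to either gene. The lower Emx2 peaks had folds of 4.42 in replicate 1, with the summit 971 bp into the gene in a coding exon, and 3.61 in replicate 2, with the summit at 1262 bp in an intron.

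Emx1, the close relative of Emx2 and a marker of dorsal progenitors, had no peak in any library. The nearest was 27.9 kb away in replicate 1 and 49.1 kb away in replicate 2, and the latter lay at the start of Spr, the sepiapterin reductase gene. Of all protein-coding genes, 24.4% were at least as far from a peak of either replicate as Emx1.

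Neurog1 had 3 peaks in replicate 1 and 4 in replicate 2. The promoter peak ran from 56251995 to 56252709 on chromosome 13 in replicate 1, with a fold of 6.63 (14 fragments, interval 7.65 to 23.5). In replicate 2 it ran from 56251663 to 56253125, with a fold of 5.91 (17 fragments, interval 9.90 to 27.2). The 2 summits were 20 bp apart, 106 and 126 bp upstream of the start, within the Neurog1 promoter sequence above. Upstream, replicate 1 had peaks 5573 and 7325 bp from the start with folds of 4.42 and 3.98. Replicate 2 had peaks 1803, 3780 and 7589 bp from the start with folds of 4.27, 3.94 and 4.27. The farthest pair overlapped over 343 bp, and the other 3 upstream peaks were each seen in 1 replicate.

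Neurog2, a main proneural factor of the cortex, had 4 peaks in each replicate, as many as any of the 10 genes in either library. The promoter peak ran from 127632231 to 127633541 on chromosome 3 in replicate 1, with a fold of 6.63 (14 fragments, interval 7.65 to 23.5) and its summit 741 bp upstream. In replicate 2 it ran from 127632478 to 127633122, with a fold of 5.59 (16 fragments, interval 9.15 to 26.0) and its summit 481 bp upstream. A distal pair began at the same base, 127625495, in both replicates and ended at 127626286 and 127626202. Its folds were 5.30 (11 fragments) and 5.26 (15 fragments), and its summits, 7481 and 7499 bp upstream, were 18 bp apart. This was the closest agreement in position among the 9 overlapping stretches at the 10 genes. Another overlapping pair lay over the coding exon, with folds of 3.98 and 3.94 and summits 540 bp apart, and each replicate had a further upstream peak without a partner, 5457 bp from the start in replicate 1 (fold 4.42) and 2079 bp in replicate 2 (fold 4.27).

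Among the 10 genes, those of intermediate progenitors and postmitotic neurons had no peak, or 1 in each replicate as Pax6 did. Eomes had no peak, and the nearest in both replicates, 19.6 and 19.9 kb downstream with folds of 4.86 and 6.90, lay at the start of Golga4, a golgin gene. Tbr1 was the farthest from a peak of all 10, with 89.8 kb to the nearest in replicate 1 and 88.7 kb in replicate 2, and 16.4% of all genes were at least as far. Neurod6 had its nearest peak at 15.9 kb in replicate 1 and 57.8 kb in replicate 2.

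Neurod1, a bHLH factor of differentiating neurons, had a promoter peak in replicate 1 from 79456158 to 79456925 on chromosome 2, with a fold of 4.86 (10 fragments, interval 4.80 to 18.4) and its summit 231 bp into the gene, in the intron. Replicate 2 had instead a peak from 79453873 to 79454616, with a fold of 4.27 (12 fragments, interval 6.20 to 21.0) and its summit 2642 bp into the gene, in the coding exon. That peak also covered the start of the noncoding transcript Gm26755. Neurod2 had a peak of fold 3.53 (7 fragments) downstream of the gene in replicate 1, 5650 bp from the start, and a peak of fold 3.94 (11 fragments) 9037 bp upstream in replicate 2. Neither gene had a place that recurred. Both replicate 1 summits, at 10 and 7 fragments, were within 4 fragments of the weakest called in that library.

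The peaks at the 10 genes were low within their own lists. Folds ran from 3.53 to 7.07 in replicate 1, with a median of 4.64, and from 3.61 to 6.24 in replicate 2, with a median of 4.27. Ranked by fold among all peaks of the library, the peaks here had a median percentile of 37.6 in replicate 1 and 35.5 in replicate 2. The highest, at Pax6 in replicate 1 and at Emx2 in replicate 2, stood at percentiles 67.2 and 62.3. The difference was plainer for promoter peaks, whose median fold over all genes was 7.95 in replicate 1 and 8.87 in replicate 2, above every peak at the 10 genes. Distal peaks had medians of 4.42 and 4.27 over all genes, and the distal peaks here ran from 3.53 to 5.30. The lower of the 2 folds reached at most 6.19, at Emx2, and 32.4% of all overlapping promoter stretches were at or under that value.

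**Figure D2:**
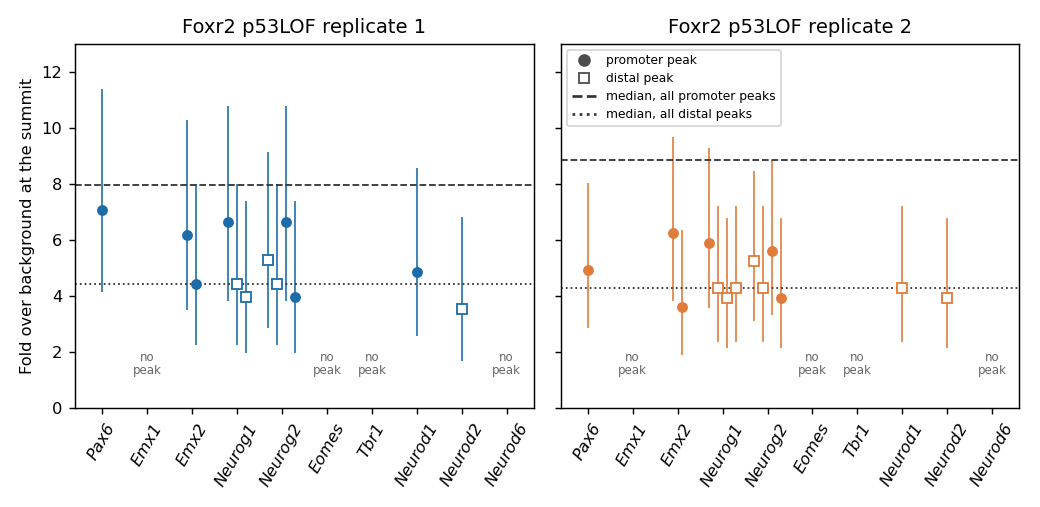
Fold over background at the summit (y axis) of each peak at the 10 genes in the 2 Foxr2 p53LOF replicates, with exact 95% Poisson intervals of the fragments as bars, filled circles for promoter peaks and open squares for distal peaks. All points lie under the dashed line, the median of all promoter peaks of the library (7.95 and 8.87), and most distal peaks lie near the dotted line, the median of all distal peaks (4.42 and 4.27).

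The order of the genes by their highest fold was not the same in both replicates. In replicate 1 Pax6 (7.07) came before Neurog1 and Neurog2 (both 6.63), Emx2 (6.19), Neurod1 (4.86) and Neurod2 (3.53). In replicate 2 Emx2 (6.24) came before Neurog1 (5.91), Neurog2 (5.59), Pax6 (4.93), Neurod1 (4.27) and Neurod2 (3.94). The highest summits of Pax6, Emx2, Neurog1 and Neurog2 held 13 to 15 fragments in replicate 1 and 14 to 18 in replicate 2, and the counting intervals of all 4 genes overlapped, so no order among them can be read.

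The filter stated by the study kept peaks with a fold above 6, a −log10 q above 6, a length under 10000 bp and no control peak in the same place. The study then kept only sites that were also open-chromatin peaks in single-nucleus data of the same mouse model. That step was not applied here, so the filter means the earlier steps alone, and the sites left are not the final set of the study. The filter passed 4 of the 12 peaks in replicate 1 and 1 of the 13 in replicate 2. A site that passed in both replicates was left at 1 of the 10 genes, Emx2, against 50.0% of all protein-coding genes. The stretch shared by its 2 peaks ran from 59457584 to 59458503. It held the replicate 1 summit, while the replicate 2 summit, at 59458819, lay outside it. Emx2 passed at the limit, since a fold above 6 needs 13 fragments in replicate 1 and 18 in replicate 2, and its peaks held exactly 13 and 18. Neurog1 held 17 in replicate 2 and Neurog2 held 16, just outside, and both passed in replicate 1. Pax6 passed in replicate 1 and held 14 fragments in replicate 2.

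More genes had a promoter peak where the GC content around the start was higher, and the 10 genes spread over much of that range. Within 500 bp of the outermost coding start, GC content was 42.0% at Neurod6, 46.0% at Tbr1, 53.7% at Neurod1, 55.1% at Eomes, 55.8% at Pax6 and 59.3% at Neurod2. It was 62.3% at Emx2, 62.5% at Emx1, 63.1% at Neurog2 and 68.8% at Neurog1. The median over the 10 genes was 57.6%, between the 58.3% of all genes with overlapping peaks and the 46.8% of all other genes. All genes were sorted by GC content into 10 classes of equal size. An overlapping promoter peak was present at 13.6% of genes in the class of Neurod6 and 24.7% in that of Tbr1, and at 81.0% and 83.8% in the classes of Neurog2 and Neurog1. Within a class, genes of like GC content differed. Emx1 and Emx2 fell in the same class, in which 76.6% of genes had such a peak, and Emx2 had it while Emx1 did not. Pax6 and Eomes shared a class with 62.4%, and Pax6 had the peak, away from its outermost start, while Eomes did not. The part of GC content in these calls was not tested.

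**Figure D3:**
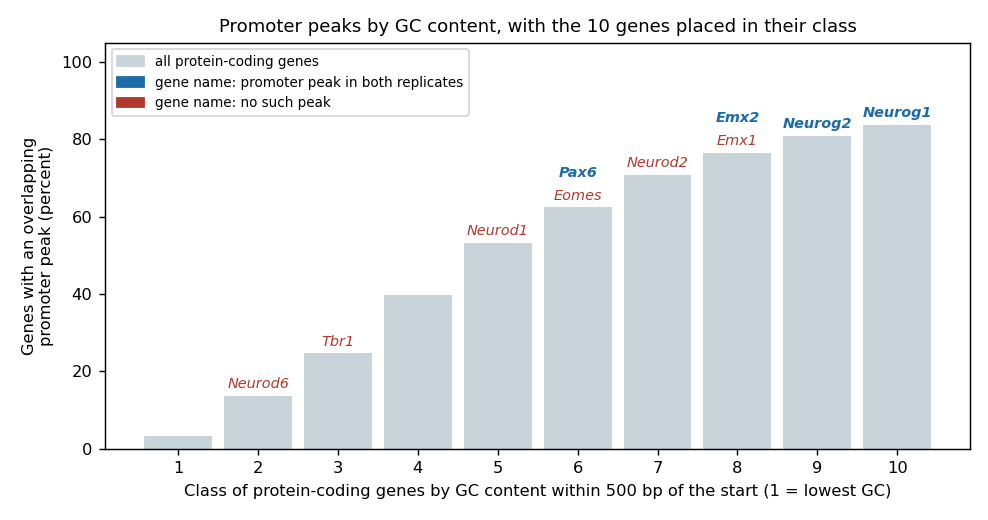
Percent of all protein-coding genes with an overlapping promoter peak (y axis) in each of 10 equal classes of genes by GC content within 500 bp of the start (x axis, lowest first), with the 10 genes written above their class. The bars climb from 3.33% to 83.8%, and Emx1 (no such peak, red) shares the class of Emx2 (peak, blue) at 76.6%.

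Of the 25 windows of 200 bp around the summits, 10 held an E-box. Some windows of the 2 replicates overlapped, as at Pax6, where both hold the same E-box, so the 25 are not all separate sequences. In replicate 1 these were 6 of 12, against 59.5% of the windows of all peaks, and in replicate 2 they were 4 of 13, against 60.3%. The form CAGATG was in none of the 25 windows, against 12.6% and 13.1% of all windows. Among the RefSeq promoters of the 10 genes, 2 of them for Pax6, it was found at Neurod2, and 14.4% of all RefSeq promoters of this length hold it. The SOX string CCATTGT was in the Neurog1 promoter windows of both replicates (2.39% and 2.60% of all windows), which overlap and hold the same match. The string CCTTTGT was in the Neurod2 window of replicate 1 (4.75%). The ETS string was in the Neurod1 window of replicate 2 alone (2.16% of all windows in that replicate and 2.37% in replicate 1). The YY1 string was in the window 1803 bp upstream of Neurog1 in replicate 2 (1.30%), and the forkhead string was in none (2.52% and 2.69%). All 10 genes were matched to RefSeq promoters. A match of letters is a description and does not show a bound factor.

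The other genes of the same pathways were read in the same way from lists fixed by name. Of 12 further genes of dorsal progenitors, 7 had overlapping peaks, all 7 at a promoter, and 5 kept a filtered site. These shares, 58.3% and 41.7%, were near the 62.6% and 50.0% of all genes. The highest were at Nr2f1, a nuclear receptor gene of cortical area patterning (folds 17.7 and 16.4), at Hes5 (16.3 and 17.4) and at Hes1 (12.8 and 15.8), which encode Notch effectors that hold progenitors undifferentiated. The Hes5 stretch lay at the start of Pank4 and not at its own. Next came Gli3 and Lef1, both with 6.19 as the lower fold. Dmrta2, Dmrt3 and Wnt8b had no peak in either replicate, Wnt3a had a peak in replicate 1 alone, and the peaks of Sp8 did not overlap.

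Of 12 genes of cortical excitatory neurons, 10 had overlapping peaks and all 10 kept a filtered site, beside 62.6% and 50.0% of all genes. These are long genes, with a median region of 185247 bp against 25610 bp for the 10 genes above and 37425 bp for all genes, and a longer region leaves more room for peaks. Tle4, a corepressor gene of deep-layer neurons, had a promoter stretch with folds of 13.3 and 15.4, and Rorb, a nuclear receptor gene of granular-layer neurons, had 12.8 and 16.4. The highest stretch, near the vesicular glutamate transporter gene Slc17a7 (19.9 and 28.6), lay at the starts of Aldh16a1 and Pih1d1. Fezf2 and Slc17a6 had no peak.

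The bHLH relatives and their partners, short lists of 8 and 7 genes, differed in these counts. Of all genes, 62.6% had overlapping peaks and 50.0% kept a filtered site. Of 8 other proneural bHLH genes 2 had overlapping peaks, among them Atoh1 (folds 5.30 and 3.61), and 0 kept a filtered site. Bhlhe23 had a peak in replicate 1 alone, and Neurod4, Neurog3, Atoh7, Olig3 and Ptf1a had none. By contrast all 7 genes of the E proteins and Id proteins, which dimerise with proneural factors or block them from DNA, had overlapping promoter peaks and filtered sites. The highest were Tcf3 (20.8 and 24.3), Tcf4 (18.1 and 21.0), Id3 (15.0 and 14.8) and Tcf12 (13.3 and 19.7). The median of the best lower fold was 13.3 among these partners and 5.75 among Pax6, Emx2, Neurog1 and Neurog2, beside 9.28 over all genes with overlapping peaks.

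For comparison, 4 of 10 ventral telencephalon genes had overlapping peaks, the same count as here, and 0 kept a filtered site. Of all genes, 62.6% and 50.0% did. The 4 ventral genes were Gsx2 (6.19 and 5.91), Dlx6 (4.86 and 5.26), Dlx2 (4.86 and 4.60) and Dlx1 (3.98 and 4.60). Gad1, Gad2, Lhx6 and Dlx5 had no peak, whereas replicate 1 alone had a peak at Nkx2-1 and at Sst. All 7 glial genes had overlapping peaks and filtered sites, led by Nfia (15.9 and 17.7), Sox10 (14.1 and 18.1), Nfib (13.3 and 16.1) and Olig1 (13.3 and 21.0). The glial list was made up mainly of genes that the paper reported as bound by Foxr2 in these same libraries. The ventral list held genes of the kind that it reported without binding. The counts of these 2 lists were therefore not independent of how the genes were chosen. No gene of the 6 lists had a peak in either control replicate. The lists are short and were compared by their counts, with no test of the differences.

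**Figure D4:**
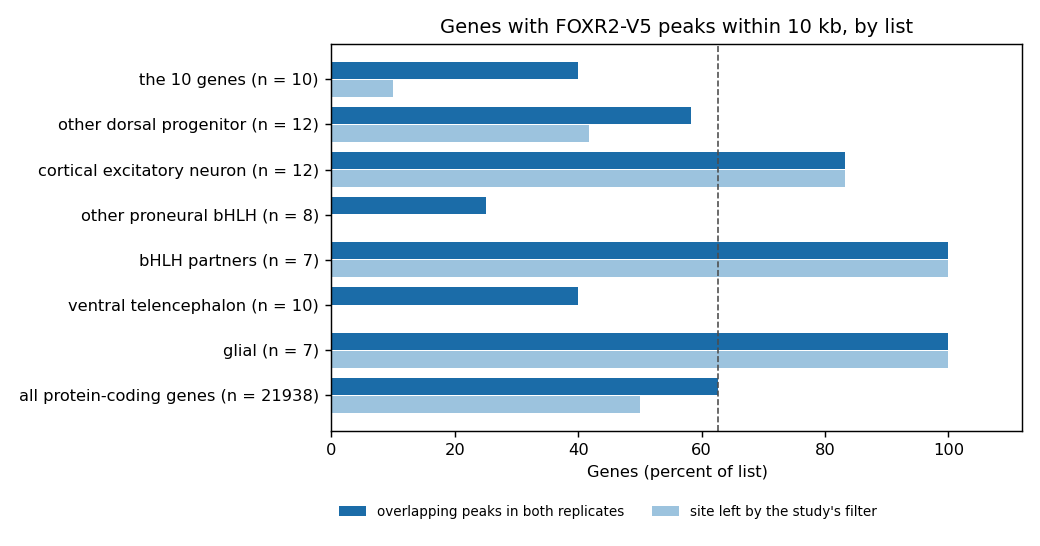
Percent of the genes of each list (y axis, with the number of genes) that had overlapping peaks of both Foxr2 p53LOF replicates within the gene or 10 kb (dark bars) and a site left by the filter of the study (light bars). The 10 genes stand at 4 and 1 of 10, all protein-coding genes at 62.6% (dashed line) and 50.0%, and the bHLH partners and glial genes at 100%. Most of the glial genes were reported as bound by the paper from these same libraries. The filter leaves out the open-chromatin step of the study.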

How the data were processed

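CUT&RUN with an antibody against V5 was performed on 2 replicates of a Foxr2 p53LOF line and 2 of a V5 control line, grouped by the sample labels. According to the methods and the processing notes of the submitters, reads were trimmed (Trimmomatic 0.39), aligned to mm10 (BWA 0.7.17), cleared of duplicates (Picard 2.26.6) and used to call peaks in each library (MACS2 2.2.7.1), with HOMER 4.11 also named. Each deposited list gives, per peak, a fold over background (the MACS2 ratio, as deposited), the −log10 of its p-value and q-value, and a score, which is the −log10 q times 10. The lists hold no read totals.

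The members and gene lists were chosen with earlier results of these data known. The text names all 10 members and, for each other list, up to 4 genes with the highest lower fold and the genes without overlapping peaks where these are 6 or fewer (Gli3 and Lef1 tied). Some results for single genes are not reported here. Peaks of the replicates overlapping by at least 1 bp gave a shared stretch, and the lower of its folds ranked it. The background of each library was the value, among those tried between 0.3 and 4 at a spacing of 0.0005, at which folds up to 30 gave whole fragments (tolerance 0.02, 100% of peaks). The filter of the methods required an overlap of at least 10 bp with a control peak to drop a peak. The open-chromatin step of the methods was not applied. The background search, the shared stretches and the gene calls were tested on simulated data, and the other steps were not. Python 3.11.15, pandas 2.3.3, numpy 2.4.6, scipy 1.17.1 and matplotlib 3.10.9 were used. The alternatives covered the gene region, filter, fold minimum, promoter window, transcripts, overlap, and leaving out each library.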

Additional observations from a re-analysis of the deposited data

How the results depend on the processing

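No paired analysis was possible because the counts come from no test and the replicate numbers only name the libraries. The counts of genes with overlapping peaks (4), promoter peaks (4) and distal peaks (2) were recomputed under 12 alternatives and without each Foxr2 p53LOF replicate. The promoter window, the set of transcripts, the summit in place of the whole peak, a larger required overlap and leaving out peaks at the start of another gene changed none of these 3 counts. Leaving out peaks at the start of another gene lowered the share of all genes with overlapping peaks to 50.3%. With the gene body alone, or 5 kb on either side, 4 of the 10 genes had overlapping peaks, beside 54.7% and 59.6% of all genes. In both settings 0 of the 10 had an overlapping distal peak. The share of all genes was not recomputed for promoter peaks, for distal peaks or for variants of the filter. With 50 kb, 7 of the 10 genes had overlapping peaks, close to the 74.7% of all genes, and 5 had distal ones. The filter of the methods left 1 gene with peaks, beside 50.0% of all genes, 1 with promoter peaks and 0 with distal peaks. A fold of at least 5 left 3 genes with overlapping peaks, beside 55.7% of all genes, 3 with promoter peaks and 1 with a distal peak. A fold above 10 left 0 genes in each of the 3 counts, while 28.2% of all genes kept overlapping peaks. Taking a single replicate, 6 of the 10 genes had a peak, beside 66.2% to 66.9% of all genes, 4 to 5 a promoter peak and 3 to 4 a distal peak; without replicate 1 the distal count was 4, with Neurod1 and Neurod2 added to it. Genes with a site after the filter numbered 3 with a fold above 5 and 0 with a fold above 10, and 1 without either control replicate or without the length limit. The depth limits all counts: a summit under 6 fragments in replicate 1 or 8 in replicate 2 was not called.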

Other observations

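Between 10 and 50 kb from the 10 genes there were 10 further overlapping stretches, at Emx1, Eomes, Neurod2 and Neurog1, and 4 of them lay at the start of another protein-coding gene. These 4 were at Spr for Emx1 (folds 7.95 and 9.20), Golga4 for Eomes (4.86 and 6.90), and Ppp1r1b (3.98 and 4.27) and Stard3 (10.16 and 12.81) for Neurod2. Downstream of Neurog1 a group of 4 stretches lay away from any protein-coding start, 23.2 to 35.5 kb from the gene. The highest of them ran from 56225517 to 56227259 on chromosome 13, with folds of 11.05 and 9.86, both above the Neurog1 promoter peaks (6.63 and 5.91). The next ran from 56215789 to 56216679 with folds of 7.51 and 7.88. Neurod2 had stretches away from a coding start 12.5 kb (5.30 and 6.24) and 31 kb (4.42 and 5.91) upstream. These stretches were looked at after the values within 10 kb had been seen, and which gene, if any, they act on was not tested.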
